A study of Mus musculus with 12 samples.

Results

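Ventricles that lacked both Hdac2 and Hopx were compared with wild-type ventricles at embryonic day 16.5 of the mouse, gene by gene. The comparison used the 3 arrays titled as double-null heart and the 3 titled as wild-type heart, 6 of the 12 arrays in the series, and every measured gene was a member. The remaining arrays were 3 of Hdac2-null and 3 of Hopx-null ventricles, which share the age and tissue and entered the fit for the spread. Each array held RNA of 1 embryonic ventricle, and the submitters describe the ventricles as independent. Both genes are given only as null, so the background strain, the deleted exons, and whether the deletion was made in all cells are not given in the sources used here. RNA was hybridised as biotin-labelled cRNA to single-colour Affymetrix arrays, and a signal is the deposited intensity of a probe set, the group of probes for 1 transcript.

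Hdac2 encodes a class I histone deacetylase, an enzyme that removes acetyl groups from histones and other proteins and works within the NuRD, Sin3 and CoREST repressor complexes beside its close relative Hdac1. Hopx encodes a small homeodomain protein of cardiac progenitors and myocytes that does not bind DNA itself and acts through partners, which include serum response factor and class I deacetylases. In the embryonic heart the pair has been linked to the acetylation of the cardiac transcription factor Gata4 and to the proliferation of myocytes.

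Signals were raised to a floor of 82.5 units before log2 transformation, and 9667 genes that varied above it were tested with limma. The upper quartile of signal ran from 557.3 to 586 over the 12 arrays, and log2 signals of the 6 arrays compared correlated at 0.982 to 0.995. The groups were not balanced for sex: the female-specific noncoding RNA Xist was at 5894 to 6130 units on wild type 1, wild type 2 and double-null 1, and no higher than 22.2 on the 3 remaining arrays. The Gapdh 3′ to 5′ log2 ratio, a measure of RNA integrity, was 1.33 on wild type 1 and 0.90 to 1.07 on the other 5, and group means gave exact two-sided permutation p-values of 0.8 for Gapdh and 0.3 for beta-actin, where 3 against 3 cannot go below 0.1. All 8 ventricular myocyte markers were above the floor on all 6 arrays, while Ptprc of leukocytes, Alb and Afp of liver, Sftpc and Nkx2-1 of lung, Sox10 of neural crest and the skeletal muscle genes Myod1, Myog, Myh3 and Mylpf were below it on all 6. Summed signal of 5 atrial markers was 39499 to 41263 units in wild type and 33240 to 36923 in double-null, and that of 4 leukocyte markers was 5390 to 6004 and 4402 to 5139. The brightest genes weigh most in such sums. Of the atrial markers, Myl7 did not overlap between groups, while Myl4, Sln, Kcnj3 and Nr2f2 did. Summed signals of ventricular myocyte, endothelial, fibroblast, epicardial and smooth muscle markers overlapped between groups. For 4 endothelial markers the sum was 9793 to 11859 in wild type and 9751 to 10023 in double-null. In such whole-ventricle RNA, fewer cells of a type and less RNA per cell cannot be told apart.

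Both targeted genes were low on every double-null array. Hdac2 signal was 4717, 4604 and 5195 units in wild type and 4.07, 4.06 and 4.32 in double-null ventricles. All double-null values lay below the floor, so Hdac2 was at least 58.6-fold lower (log2 -5.87, SE 0.11, adjusted p = 1.01e-10). Hopx signal was 8653, 8577 and 12221 in wild type and 1728, 1715 and 1656 in double-null ventricles, without overlap (log2 -2.51, SE 0.11, adjusted p = 1.04e-06). This Hopx probe set kept a signal above the floor, whereas another Hopx probe set read 696, 520.2 and 1145 against 9.70, 9.70 and 9.72 (adjusted p = 0.000205 among all probe sets). Hopx in double-null was also below its level in Hopx-null ventricles, 1865, 2046 and 2066, a difference that did not pass the test (log2 -0.23, SE 0.11, adjusted p = 0.621). The position of these probe sets relative to the deleted sequence was not known here.

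Besides the targeted genes, 1 gene passed the test, Tnni2, which encodes the inhibitory subunit of troponin in fast skeletal muscle. In all, 1 gene was called higher (0.0103% of those tested) and 2 lower (0.0207%) at an adjusted p under 0.05, 0.031% together. Before adjustment, p lay under 0.05 for 291 genes in the higher direction (3.01%) and 416 in the lower (4.3%), 7.31% in all, and 483 in both directions together would be expected if no gene changed. A change of over 2-fold was measured for 11 genes higher (0.114%) and 19 lower (0.197%). Over all genes tested 4327 were higher and 5260 lower, with a median log2 difference of -0.01. Without wild type 3, 8 genes were called, with Aamdc, Ddit4, Dpep1, Irgm2 and Pgam2 added in the lower direction, and 2 or 3 were called without any other of the 6 arrays. Each of those 5 genes was lower on wild type 3 than on the other wild-type arrays, as for Dpep1, a membrane dipeptidase, at 2325, 2225 and 1379.9 in wild type and 1295, 1251 and 1391 in double-null, and Pgam2, the muscle phosphoglycerate mutase, at 13583, 14446 and 11419 in wild type and 11173, 11098 and 11084 in double-null.

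**Figure D1:**
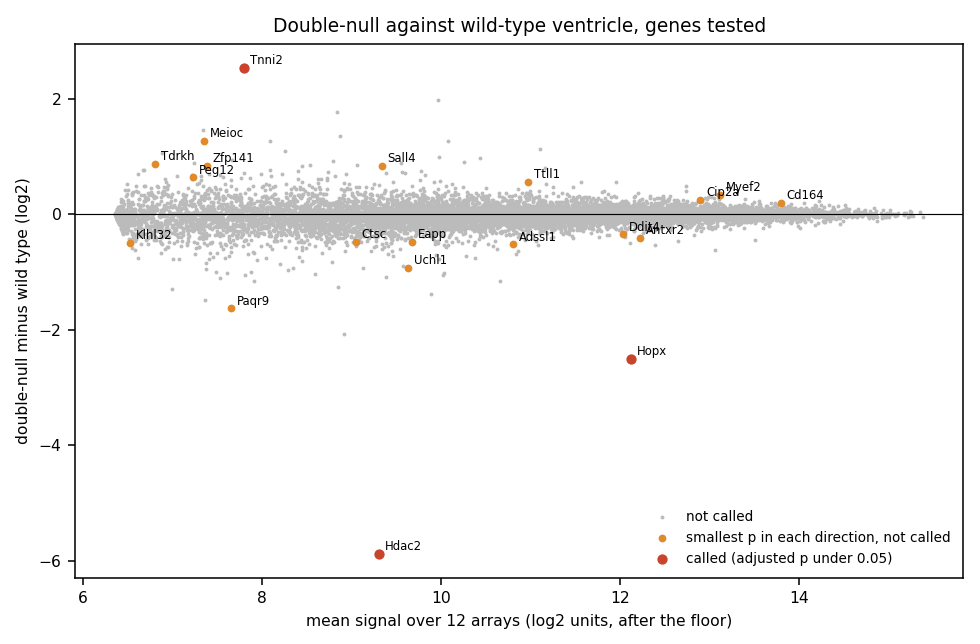
Difference between double-null and wild-type ventricles (log2, vertical axis) against mean log2 signal over the 12 arrays (horizontal axis), 1 point per gene tested. Red points are the 3 genes called, orange points the other genes with the smallest p in each direction; Hdac2 at -5.87, Hopx at -2.51 and Tnni2 at 2.53 stand away from the band of grey points.

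Tnni2 signal was 27.7, 45.0 and 84.6 units in wild-type and 364, 551 and 549.9 in double-null ventricles. Every double-null array was far above every wild-type array, and 2 of the 3 wild-type values were below the floor. With the floor applied the rise was 5.76-fold (log2 2.53, SE 0.27, adjusted p = 0.00598). Tnni2 was at 439, 665 and 926 in Hdac2-null ventricles, overlapping double-null (double-null minus Hdac2-null log2 -0.43, 95% interval -1.04 to 0.18, adjusted p = 0.578). It was at 134, 39.1 and 23.3 in Hopx-null ventricles, below every double-null array (double-null minus Hopx-null log2 2.31, SE 0.27, adjusted p = 0.0215). A dimmer Tnni2 probe set read 33.5 ± 8.13 (SD, n = 3) in wild type and 97.1 ± 21.1 in double-null (adjusted p = 0.743), and the third lay near 4.5 in both. The call was lost under other floors and without some arrays. The adjusted p was 0.319 without a floor (log2 3.34), 0.0771 with a floor of 41.3 units (3.15) and 0.112 with one of 165 units (1.54). It was 0.0514 without wild type 1, 0.0546 without double-null 2 and 0.0547 without double-null 3, with log2 differences of 2.43 to 2.52.

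The other troponin I genes were not called. Tnni3, the adult cardiac isoform, was at 20687 ± 1812 against 18896 ± 268 (log2 -0.13, SE 0.06, adjusted p = 0.671), and Tnni1, the slow skeletal isoform that the fetal heart uses, measured log2 -0.07 (SE 0.04). Of 28 listed skeletal muscle isoforms and factors, 8 were tested. Groups were apart in 2 of the 8 in the higher direction (25%, against 6.31% of all genes). In the lower direction they were apart in 1 (12.5%, against 8.61% of all genes). The partners of Tnni2 in the fast troponin complex, Tnnt3 and Tnnc2, read 4.84 and 4.33 in wild type and 4.89 and 4.34 in double-null, in the range of undetected probe sets. The myogenic regulators Myod1 and Myog, embryonic myosin Myh3 and fast myosin light chain Mylpf were likewise at 4.24 to 5.35 in both group means. Casq1, the calsequestrin of skeletal muscle, was at 2496, 3389 and 2415 in wild type and 3656, 4215 and 4282 in double-null, apart on all arrays but not called (log2 0.56, SE 0.17, adjusted p = 0.612). In the opposite direction Myl1, a fast skeletal light chain, was at 558, 256 and 324 in wild type and 247, 169.7 and 126 in double-null (log2 -1.04, SE 0.38, adjusted p = 0.657). Acta1, skeletal alpha-actin, was at 665, 2345 and 2189 in wild type and 804, 515 and 907 in double-null, with wild type 1 inside the double-null range (log2 -1.06, SE 0.58, adjusted p = 0.69). Ckm, Tnnt1, Mybpc2 and Smpx measured -0.20, -0.31, 0.12 and -0.02.

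**Figure D2:**
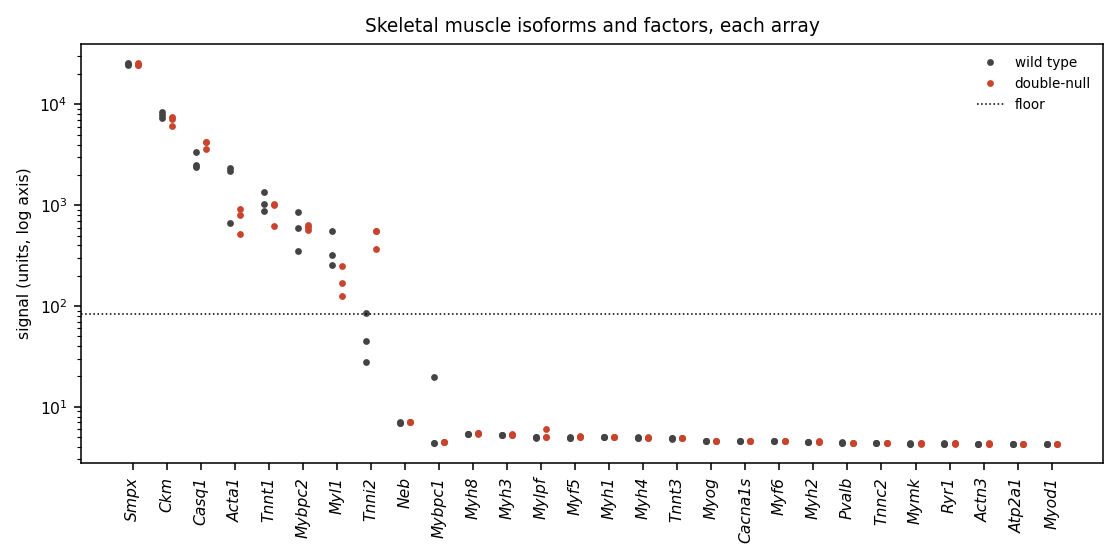
Signal of skeletal muscle isoforms and factors (log axis, deposited units) on the 3 wild-type (grey) and 3 double-null (red) arrays, ordered by mean signal; the dotted line is the floor of 82.5 units. Tnni2 crosses the floor in double-null ventricles, from 27.7 to 84.6 units in wild type to 364 to 551 units, while the genes to its right lie far below the floor in both groups.

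Genes beside the called genes on their chromosomes were not called, where 0.031% of all genes tested were. Unadjusted limma p lay under 0.05 for 4 of 20 genes around Tnni2, 1 of 20 around Hdac2 and 2 of 20 around Hopx, and for 7.31% of all genes. Of all genes 44.8% measured higher and 54.4% lower. Of the 10 tested genes on each side of Tnni2, 4 measured higher and 16 lower (median -0.07), among them the noncoding RNA Kcnq1ot1 at 0.51, the lysosomal protease gene Ctsd at -0.24, Tollip at -0.28 and the growth factor gene Igf2 at 0.02. Around Hdac2 12 measured higher and 8 lower (median 0.04), and around Hopx 15 measured higher and 5 lower (median 0.07). Thegl, the tested gene next to Hopx, was at 14.1 ± 8.72 (SD, n = 3) in wild type and 103 ± 19 in double-null, a little above the floor (log2 0.31, SE 0.15, adjusted p = 0.673). Genes in this paragraph were picked from their neighbourhoods after their values were seen.

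Among the 10 genes with the smallest p in the higher direction, 9 did not pass the test, and their adjusted p lay between 0.219 and 0.594. Myef2, a nucleic acid-binding repressor of the myelin basic protein gene, was at 8425, 7708 and 8420.1 in wild type and 9778, 10576 and 10666 in double-null ventricles (log2 0.34, SE 0.06, adjusted p = 0.219). A dimmer Myef2 probe set was among the 6 of 17933 probe sets called when all were tested (0.0335%), the others being 2 each of Hdac2 and Hopx and 1 of Tnni2. Without wild type 3, 10 probe sets were called. The dimmer Myef2 probe set went from 741, 816 and 928 to 1376, 1416 and 1375 (log2 0.75, SE 0.10, adjusted p = 0.0303). Every double-null array was above every wild-type array in these 2 Myef2 probe sets. The third Myef2 probe set read 87.4, 130.5 and 163 in wild type and 196, 158 and 151 in double-null, with overlap (log2 0.44, SE 0.26, adjusted p = 0.689). Without 1 array the adjusted p of the called Myef2 probe set was 0.0154 when wild type 3 was left out. It was 0.102 to 0.223 when any of the other 5 was.

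Peg12, an imprinted gene expressed from the paternal copy, was at 120.4, 122 and 146 in wild type and 203, 181 and 218 in double-null (log2 0.64, SE 0.11, adjusted p = 0.236). Tdrkh, a tudor domain protein of the piRNA pathway, was below the floor on all wild-type arrays, 62.2, 57.0 and 68.3, and at 153, 171 and 132 in double-null, at least 1.83-fold higher (adjusted p = 0.421). Meioc, needed for the meiotic prophase of germ cells, was at 107, 97.1 and 136 in wild type and 199, 284 and 348 in double-null (log2 1.27, SE 0.26). Sall4, a transcription factor of pluripotent cells, was at 498, 479 and 475 in wild type and 943, 933 and 736 in double-null (log2 0.84, SE 0.18, adjusted p = 0.501, also that of Meioc). Of 33 listed germline genes 3 were tested: Rec8, a meiotic cohesin, measured 0.53 (SE 0.23), and the synaptonemal complex genes Sycp2 and Sycp3 measured -0.03 and -0.01. Rbm46, a germ cell RNA-binding protein named after its values were seen, was at 126, 28 and 138 in wild type and 312, 300.0 and 318 in double-null (log2 1.46, SE 0.41, adjusted p = 0.612). The groups did not overlap for Peg12, Tdrkh, Meioc, Sall4 or Rbm46. Of all genes tested, the groups did not overlap in 610 in the higher direction (6.31%).

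The remaining genes of this rank were Cip2a, an inhibitor of protein phosphatase 2A (log2 0.25, SE 0.05), the tubulin polyglutamylase subunit Ttll1 (0.56, SE 0.13), the sialomucin Cd164 (0.20, SE 0.05) and the zinc finger gene Zfp141 (0.83, SE 0.20). Cd164 was bright on all arrays, at 13351, 13807 and 13475 in wild type and 15045, 15481 and 16030.4 in double-null without overlap. Zfp141 was dim, at 173, 121 and 129.5 in wild type and 203, 231 and 326 in double-null.

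The proximal promoters of the genes ranked next to Tnni2 by p in the higher direction are shown, so that their sequence can be read beside the signals. RefSeq entries matched 4 of the 5 genes looked for (Tnni2, Myef2, Peg12, Tdrkh and Meioc). Each runs from 250 bases before to 50 after the annotated start, in assembly GRCm38.p6, 5′ to 3′ on the gene's strand: Myef2 at chr2:125123611-125123910 (minus strand), Peg12 at chr7:62464461-62464760 (minus), Tdrkh at chr3:94412994-94413293 (plus) and Meioc at chr11:102665335-102665634 (plus). Capitals mark matches on either strand to the letters of a GATA motif (AGATAA), an E2F motif (GCGGGAAA), a CCAAT box (CCAAT) or an E-box (CACGTG).
Myef2: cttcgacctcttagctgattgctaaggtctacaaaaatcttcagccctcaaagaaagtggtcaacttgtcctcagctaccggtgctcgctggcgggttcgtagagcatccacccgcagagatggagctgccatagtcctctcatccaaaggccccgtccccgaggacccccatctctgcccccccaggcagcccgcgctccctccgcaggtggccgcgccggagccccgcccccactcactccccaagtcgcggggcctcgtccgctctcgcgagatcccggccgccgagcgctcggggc
Peg12: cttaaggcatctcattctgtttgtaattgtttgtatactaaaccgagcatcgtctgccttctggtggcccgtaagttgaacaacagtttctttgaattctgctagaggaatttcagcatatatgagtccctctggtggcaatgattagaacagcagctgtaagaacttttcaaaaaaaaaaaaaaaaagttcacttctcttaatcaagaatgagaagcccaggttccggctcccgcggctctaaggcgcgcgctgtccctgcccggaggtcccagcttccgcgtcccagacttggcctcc
Tdrkh: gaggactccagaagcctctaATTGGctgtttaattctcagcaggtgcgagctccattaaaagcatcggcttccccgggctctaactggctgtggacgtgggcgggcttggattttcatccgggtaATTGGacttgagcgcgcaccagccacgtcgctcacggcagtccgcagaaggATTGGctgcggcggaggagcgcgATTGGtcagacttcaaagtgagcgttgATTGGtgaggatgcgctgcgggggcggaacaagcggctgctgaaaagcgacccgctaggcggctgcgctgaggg
Meioc: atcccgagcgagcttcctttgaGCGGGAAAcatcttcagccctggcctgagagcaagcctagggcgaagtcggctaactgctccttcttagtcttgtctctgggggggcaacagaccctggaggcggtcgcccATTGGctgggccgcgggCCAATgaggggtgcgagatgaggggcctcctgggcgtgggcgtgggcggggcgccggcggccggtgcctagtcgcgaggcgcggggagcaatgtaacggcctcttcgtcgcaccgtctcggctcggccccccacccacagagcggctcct
The windows of Myef2 and Peg12 held no match. No AGATAA was found in the 4 windows, and it occurred in 11.2% of all 32851 promoters of the same length. The CCAAT box, found in 37.4% of all promoters, occurred 5 times in that of Tdrkh and 2 times in that of Meioc. GCGGGAAA, in 1.07% of promoters, occurred 1 time in that of Meioc, and CACGTG is in 7.15% of promoters.

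**Figure D3:**
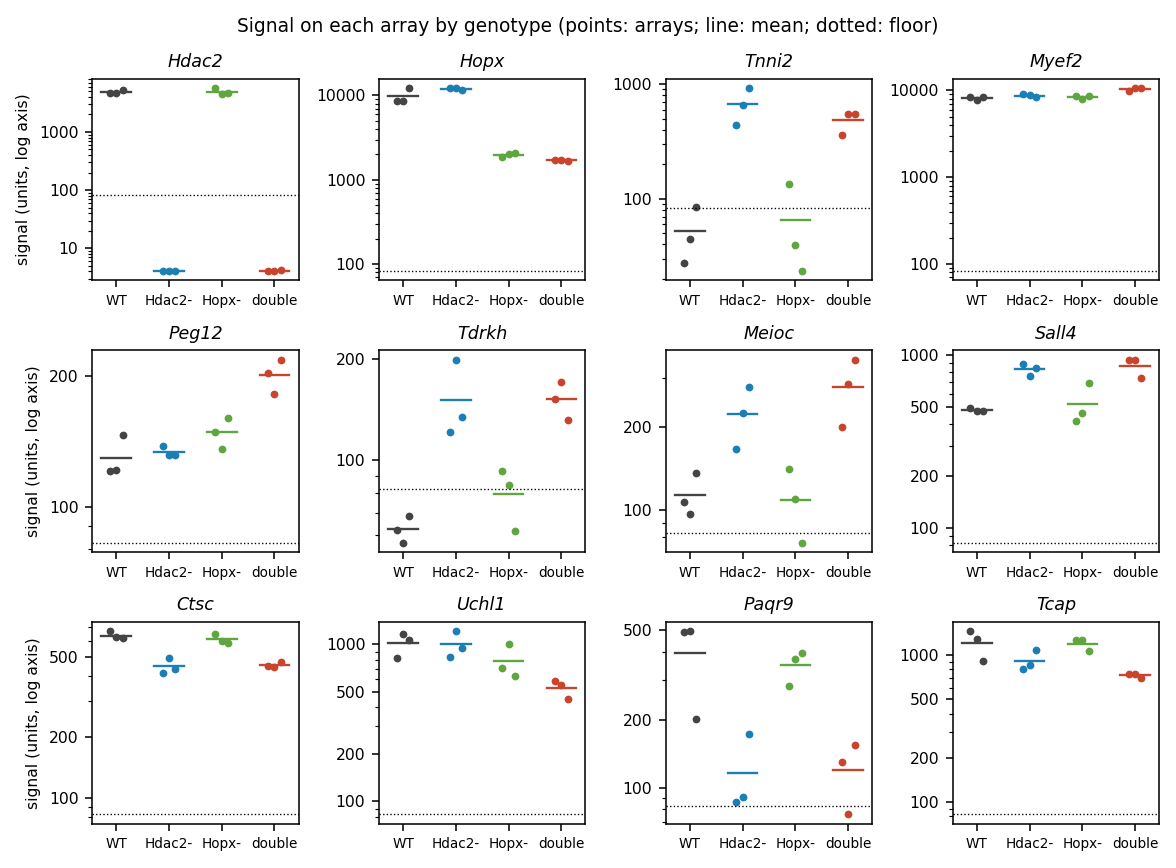
Signal on each of the 12 arrays (log axis, deposited units) for 12 genes in the 4 genotypes; points are arrays, horizontal lines are means of 3 and the dotted line is the floor. Tnni2, Tdrkh, Meioc and Sall4 overlap between Hdac2-null and double-null ventricles, while all double-null values of Myef2, Peg12 and Uchl1 lie outside the range of the other 9 arrays.

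In the lower direction, 8 of the 10 genes with the smallest p did not pass, with adjusted p between 0.501 and 0.594. Ctsc, the lysosomal protease cathepsin C, was at 669, 624 and 618 in wild type and 448, 447 and 471 in double-null (log2 -0.48, SE 0.10). Uchl1, a deubiquitinating enzyme known from neurons, was at 816, 1165 and 1060.5 in wild type and 580.4, 555 and 452 in double-null (log2 -0.93, SE 0.21). Paqr9, of the progestin and adipoQ receptor family, was at 489, 495 and 202 in wild type and 129, 76.0 and 154 in double-null (log2 -1.63, SE 0.38), with wild type 3 well below the other 2 wild-type arrays. Double-null and wild-type values did not overlap for any of these genes, as for 832 of all genes tested in the lower direction (8.61%). Antxr2, a receptor for basement membrane components, measured -0.41 (SE 0.09), and Eapp, an E2F-associated phosphoprotein, -0.47 (SE 0.10). Adssl1, the muscle form of adenylosuccinate synthase, measured -0.52 (SE 0.12). Klhl32 was at 124, 139 and 107 in wild type and 25.4, 96.5 and 56.6 in double-null, around the floor (log2 -0.50, SE 0.10). Ddit4, a stress-induced inhibitor of mTOR signalling, was at 5078, 5007 and 3938 in wild type and 3702, 3617 and 3602 in double-null (log2 -0.35, SE 0.08, adjusted p = 0.594), and it was called when wild type 3 was left out (log2 -0.47, adjusted p = 0.00964).

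Among the 19 genes over 2-fold lower, Ddo, the gene of D-aspartate oxidase, was at 4475, 2114 and 2108 in wild type and 1058, 1154 and 1461 in double-null without overlap (log2 -1.16, SE 0.30, adjusted p = 0.594). Ifngr2, a subunit of the interferon gamma receptor, was at 1048, 1647 and 1252 in wild type and 655, 664 and 606 in double-null, also without overlap (log2 -1.01, SE 0.30, adjusted p = 0.612). Egf, an epidermal growth factor gene, was at 363, 492 and 163 in wild type and 76.0, 87.4 and 182 in double-null, with wild type 3 inside the double-null range. These 3 were named after their values were seen.

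The myosin heavy chain genes, Myl2 and cardiac actin were measured close to their wild-type level. Here and below, members of a gene list beyond the 4 with the smallest p were chosen after their values were seen. Of 11 thick filament genes 0 were called, 4 measured higher and 7 lower (median log2 -0.06, against -0.01 over all genes). In 3 of them (27.3%, against 8.61% of all genes) the groups were apart in the lower direction, Mybpc3, Myl3 (-0.03, SE 0.03) and the atrial Myl7 (-0.61, SE 0.22). The M-band gene Myom2 measured -0.44 (SE 0.17) with overlap. The heavy chains Myh6 and Myh7 measured 0.05 (95% interval -0.05 to 0.15) and 0.01 (-0.06 to 0.08), and the ventricular light chain Myl2 0.01. Mybpc3, cardiac myosin binding protein C, was at 20729.5, 21282 and 19669.6 in wild type and 18808, 18958 and 18321 in double-null (log2 -0.14, SE 0.04, adjusted p = 0.641), lower on all 3 arrays. Of the 10 thin filament genes, 4 measured higher and 6 lower, within -0.13 to 0.03; cardiac actin, Actc1, measured 0.02 (95% interval -0.04 to 0.07). Of 17 Z-disc and costamere genes 8 measured higher and 9 lower, and 1 (5.88%, against 8.61% of all genes) was apart in the lower direction, Tcap, which encodes the titin cap telethonin. Tcap was at 1452, 1285 and 906 in wild type and 742, 749 and 699 in double-null (log2 -0.71, SE 0.17, adjusted p = 0.594), and it was at 807, 851 and 1088 in Hdac2-null ventricles.

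Calcium handling and channel genes included Kcnd2, a subunit of the transient outward potassium channel, at 263, 138 and 197 in wild type and 134, 120.0 and 90.1 in double-null (log2 -0.77, SE 0.24, adjusted p = 0.63). Its relative Kcnd3 measured -0.61 (SE 0.26), and Hrc, a calcium-binding protein of the sarcoplasmic reticulum, -0.29 (SE 0.18). Of 21 such genes 0 were called and 9 measured higher and 12 lower (median -0.02). The calcium pump gene Atp2a2 and its inhibitor Pln each measured 0.02, and the release channel Ryr2 -0.04.

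Cardiac transcription factors were measured with 11 of 27 higher and 16 lower, none called (median -0.03, and 0.01 without wild type 2). In 5 of them (18.5%, against 8.61% of all genes) every double-null array was below every wild-type array. Tbx5, a T-box factor of the atria and left ventricle, was at 1269, 694 and 619 in wild type and 544, 526 and 544 in double-null (log2 -0.60, SE 0.23, adjusted p = 0.663). Gata6 was at 3238, 3171 and 3000.2 in wild type and 2832, 2901 and 2560.5 in double-null (log2 -0.18, SE 0.07), and Nkx2-5 at 764, 821 and 729.8 in wild type and 698, 649.7 and 634 in double-null (log2 -0.22, SE 0.13). Mef2d and Prox1 measured -0.18 and -0.13. Hey1, a Notch-induced repressor, measured -0.46 (SE 0.19) with overlap. Gata4 itself was at 5089, 5593 and 6264 in wild type and 5933, 5672 and 5464 in double-null (log2 0.01, SE 0.08, 95% interval -0.15 to 0.18), Mef2c measured 0.01 (-0.11 to 0.12) and Srf 0.01 (-0.29 to 0.32).

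Genes described as Gata4 targets in the heart were split evenly, with 7 of 14 higher and 7 lower, none called and none with groups apart. The natriuretic peptide genes Nppa and Nppb, which mark the embryonic and stressed myocardium, measured -0.17 (95% interval -0.62 to 0.28) and 0.14 (-0.23 to 0.52). Without double-null 1 the Nppa difference was 0.05. Nppa ranged from 16674 to 28863 units in wild type and from 15436 to 25251 in double-null. Among 11 natriuretic and stress genes, Timp1, an inhibitor of matrix metalloproteinases, stood apart at 249.6, 353 and 255 in wild type and 399, 364 and 379 in double-null (log2 0.43, SE 0.15, adjusted p = 0.657). That was 9.09% of the list in the higher direction, against 6.31% of all genes. In the lower direction 0% were apart, against 8.61% of all genes.

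Transcripts of the remaining deacetylase machinery measured between -0.30 and 0.18 against wild type, and none was called. Hdac1, the paralogue of Hdac2 in the same complexes, was at 3225, 3578 and 4069 in wild type and 3929, 3877 and 4242 in double-null (log2 0.15, SE 0.08, 95% interval -0.03 to 0.34, adjusted p = 0.69). Hdac3, the deacetylase of the NCoR complexes, measured -0.30 (SE 0.20, 95% interval -0.74 to 0.14). Of 32 deacetylases and complex subunits only Hdac2 was called, 13 measured higher and 18 lower, 1 measured 0, and without Hdac2 none was beyond -0.30 or 0.18. Sin3b, a scaffold of the Sin3 complex, and Hdac5, a class IIa deacetylase of muscle, were apart at -0.13 (SE 0.07) and -0.17 (SE 0.10). Of the 32, 4 were apart in the lower direction, Hdac2 among them (12.5%, against 8.61% of all genes). In the higher direction 1 was apart (3.12%, against 6.31% of all genes). Of 13 acetyltransferase genes 9 measured higher and 4 lower, with Ep300 at 0.12 (SE 0.07) and Crebbp at 0.06 (SE 0.04).

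Cell cycle genes were measured in both directions, and none was called. Of 37 genes of the G1/S transition and DNA replication 19 measured higher and 18 lower (median 0.01), and of 37 genes of G2/M 25 measured higher and 12 lower (0.03). The first median was -0.07 without double-null 1 and 0.09 without double-null 3, and the second 0.02 without wild type 2 and 0.09 without wild type 3. Cdc6, a replication licensing factor, was at 918, 860.1 and 994 in wild type and 1222, 1097 and 1036 in double-null (log2 0.27, SE 0.13). Mcm5, of the replicative helicase, measured 0.24 (SE 0.12, and -0.0018 with its probe set of highest variance), and both were apart. In the higher direction 8.11% of the G1/S and 5.41% of the G2/M list were apart, against 6.31% of all genes. In the lower direction the shares were 0% and 5.41%, against 8.61% of all genes. Incenp, of the chromosomal passenger complex, measured 0.11 (SE 0.04), and Nuf2, of the kinetochore, 0.22 (SE 0.10). In the lower direction the mitotic kinesin Kif20a measured -0.36 (SE 0.17). Cyclin D2, Ccnd2, was at 9873, 11581 and 11528 in wild type and 10358, 10048 and 10028 in double-null (log2 -0.11, SE 0.08, 95% interval -0.28 to 0.06). Of its 7 probe sets 6 measured lower, down to -0.40 (SE 0.09, adjusted p = 0.551), and 1 measured 0.01. Cdk4, its kinase partner, measured -0.10 (SE 0.10, 95% interval -0.32 to 0.13). Of 17 cell cycle inhibitors and pocket proteins 6 measured higher and 11 lower, none apart. Inpp5f, a phosphoinositide phosphatase, measured 0.12 (SE 0.20, 95% interval -0.33 to 0.57), and -0.13 without wild type 2.

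Genes of glycolysis and the hypoxia response were measured lower in 27 of 36 (75.0%, where 54.4% of all genes tested were lower), and their median was -0.12. None was called. The groups were apart in the lower direction in 11 (30.6%, against 8.61% of all genes). They were apart in the higher direction in 1 (2.78%, against 6.31% of all genes). Several of the 36 genes are known targets of the hypoxia-inducible factors. P4ha1, a collagen prolyl hydroxylase, was at 733, 388 and 317 in wild type and 287, 198 and 298 in double-null (log2 -0.81, SE 0.28). Slc16a3, a lactate exporter, was at 898, 849.6 and 614 in wild type and 535, 446 and 593 in double-null (log2 -0.58, SE 0.20), and Ankrd37 at 595, 606 and 441 in wild type and 432, 369 and 367 in double-null (log2 -0.48, SE 0.15). Egln1, the main oxygen-sensing prolyl hydroxylase, measured -0.22 (SE 0.06), with a second probe set at -0.48 (SE 0.14). The glycolytic enzymes Pfkm, Pfkl and Eno3, of muscle, liver and muscle type, measured -0.20, -0.27 and -0.18, each with no overlap. Hif1a measured -0.01 and Vegfa 0.06, and the glucose transporter Slc2a3 0.22. The median lay between -0.13 and -0.09 when any of the 6 arrays was left out, and was -0.13 with Xist as a covariate. It was -0.05 for Hdac2-null against the same wild-type arrays. Wild type 1, whose Gapdh 3′ to 5′ ratio stood apart, was high for P4ha1 and Adm, and its part in the result was not tested beyond leaving it out.

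**Figure D4:**
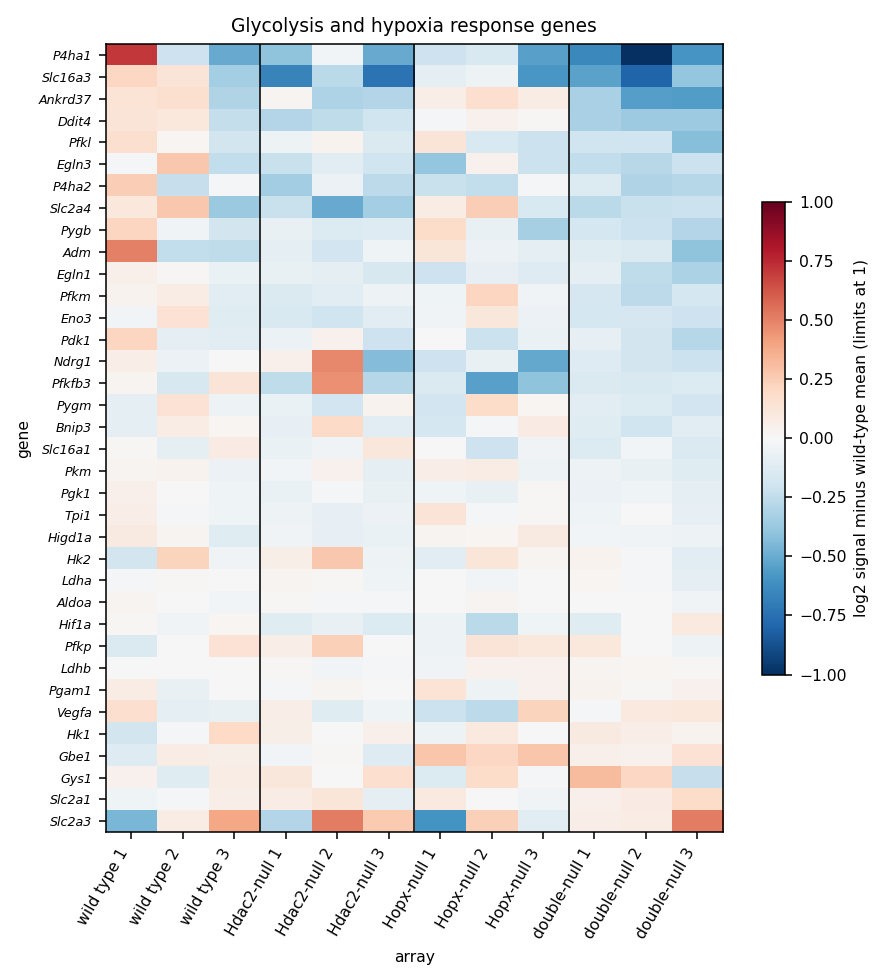
Log2 signal of 36 glycolysis and hypoxia response genes on each of the 12 arrays, relative to the mean of the 3 wild-type arrays (colour, limits at 1 log2 unit), ordered by the difference between double-null and wild type. The upper rows, led by P4ha1 at -0.81 and Slc16a3 at -0.58, are blue on all 3 double-null arrays, and wild type 1 is red for P4ha1.

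Of 29 genes of fatty acid uptake and oxidation 7 measured higher and 22 lower, none called (median -0.11, -0.13 to -0.03 without each array). Acadvl, the first dehydrogenase for long-chain fatty acids, was at 6425, 5548 and 5394 in wild type and 5188, 5221 and 4355 in double-null (log2 -0.23, SE 0.09), apart on all arrays. Of the 29, 4 were apart in the lower direction (13.8%, against 8.61% of all genes). In the higher direction 0 were, against 6.31% of all genes. Plin5, of lipid droplets, measured -0.47 (SE 0.23), whereas Cpt1a, which admits fatty acids to the mitochondrion, measured 0.30 (SE 0.14; -0.05 with its probe set of highest variance) and Hadhb 0.23 (SE 0.10). Of 30 oxidative phosphorylation genes 7 measured higher and 23 lower, by small amounts (median -0.03, range -0.23 to 0.10), and 4 (13.3%) were apart in each direction, where 6.31% of all genes were apart higher and 8.61% lower.

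All 15 tested macrophage and leukocyte markers of 28 listed measured lower, with a median of -0.25, and none was called. Csf1r, the receptor through which macrophages are maintained, was at 4744, 4352 and 4689 in wild type and 3591, 4085 and 3748 in double-null (log2 -0.27, SE 0.07, adjusted p = 0.594). Stab1, a scavenger receptor, measured -0.29 (SE 0.09), and the adaptor Tyrobp -0.23 (SE 0.10), and these 3 genes (20.0%, against 8.61% of all genes) had groups apart. The median was -0.14 without wild type 1 and -0.39 without wild type 3. It was -0.27 in Hdac2-null and -0.11 in Hopx-null ventricles against the same wild-type arrays. Of 15 interferon response and antigen presentation genes 5 measured higher and 9 lower, 1 gene at the floor measured 0, with a median of -0.12 that was -0.41 without wild type 3 and 0.06 without double-null 3.

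Of 14 tested atrial markers 3 measured higher and 11 lower (median -0.15, -0.22 without wild type 2 and -0.04 without wild type 1). Myl7, the atrial regulatory light chain, was at 12541, 10216 and 9628 in wild type and 5908, 6472 and 9009 in double-null (log2 -0.61, SE 0.22, adjusted p = 0.657). Kcnj5, an atrial potassium channel subunit, measured -0.21 (SE 0.08), and both were apart. With Tbx5, 3 of the 14 (21.4%, against 8.61% of all genes) were apart in the lower direction. In the higher direction 0 were, against 6.31% of all genes. Sln, the atrial regulator of the calcium pump, spread from 166 to 761 within double-null and from 519.9 to 1616 within wild type. How much atrial tissue each ventricle carried was not tested.

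Endothelial and endocardial genes measured lower in 21 of 29 (median -0.12, -0.14 to -0.06 without each array). Pecam1 was at 417, 410.2 and 280.3 in wild type and 308, 254 and 231 in double-null (log2 -0.47, SE 0.20), and the vascular growth factor receptors Kdr and Flt1 measured -0.30 (SE 0.15) and -0.24 (SE 0.15). Flt4, the lymphatic receptor of the same family, measured 0.25 (SE 0.10) with groups apart. It was the 1 endothelial gene apart in the higher direction (3.45%, against 6.31% of all genes). In the lower direction 3 were apart (10.3%, against 8.61% of all genes). Fibroblast and matrix genes (26 tested, median -0.02), epicardial and mesothelial markers (14, -0.08) and smooth muscle genes (21, -0.01) held no called gene. The epicardial median was -0.16 without a floor, -0.13 with Xist as a covariate, -0.12 without wild type 1 and 0 without wild type 3. Among them Podxl of the epicardium measured -0.27 (SE 0.08), and Vim, the mesenchymal intermediate filament, 0.07 (SE 0.02).

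Imprinted genes had 13 of 21 higher and 8 lower (median 0.02). Besides Peg12, Kcnq1ot1, the long noncoding RNA of the Kcnq1 imprinted domain, was at 2229, 1755 and 2379 in wild type and 2788, 2921 and 3328 in double-null (log2 0.51, SE 0.17, adjusted p = 0.641), and of its 4 tested probe sets 3 measured higher and 1 lower. Cdkn1c, the cell cycle inhibitor of that domain, measured -0.28 (SE 0.22), and Peg10 0.84 (SE 0.63). Signalling lists were centred near 0, at -0.01 for 27 Wnt genes, 0.03 for 30 BMP and TGF-beta genes, 0.05 for 15 Notch genes and 0.02 for 23 genes of PI3K, Akt and Gsk3b signalling. Among their members apart between groups were the receptors Lrp6 (-0.14, SE 0.06), Fzd1 (-0.38, SE 0.18) and Tgfbr3 (-0.18, SE 0.06). In the lower direction 7.41% of the Wnt, 10% of the BMP and TGF-beta, 0% of the Notch and 4.35% of the PI3K list were apart, against 8.61% of all genes. In the higher direction the shares were 0%, 3.33%, 0% and 8.7% in the same order, against 6.31% of all genes. Over the 35 lists with at least 5 tested genes the medians ran from -0.25 to 0.05, and 24 of them lay within 0.05 of 0. In 17 of the 35 the median took both signs when each of the 6 arrays was left out in turn.

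**Figure D5:**
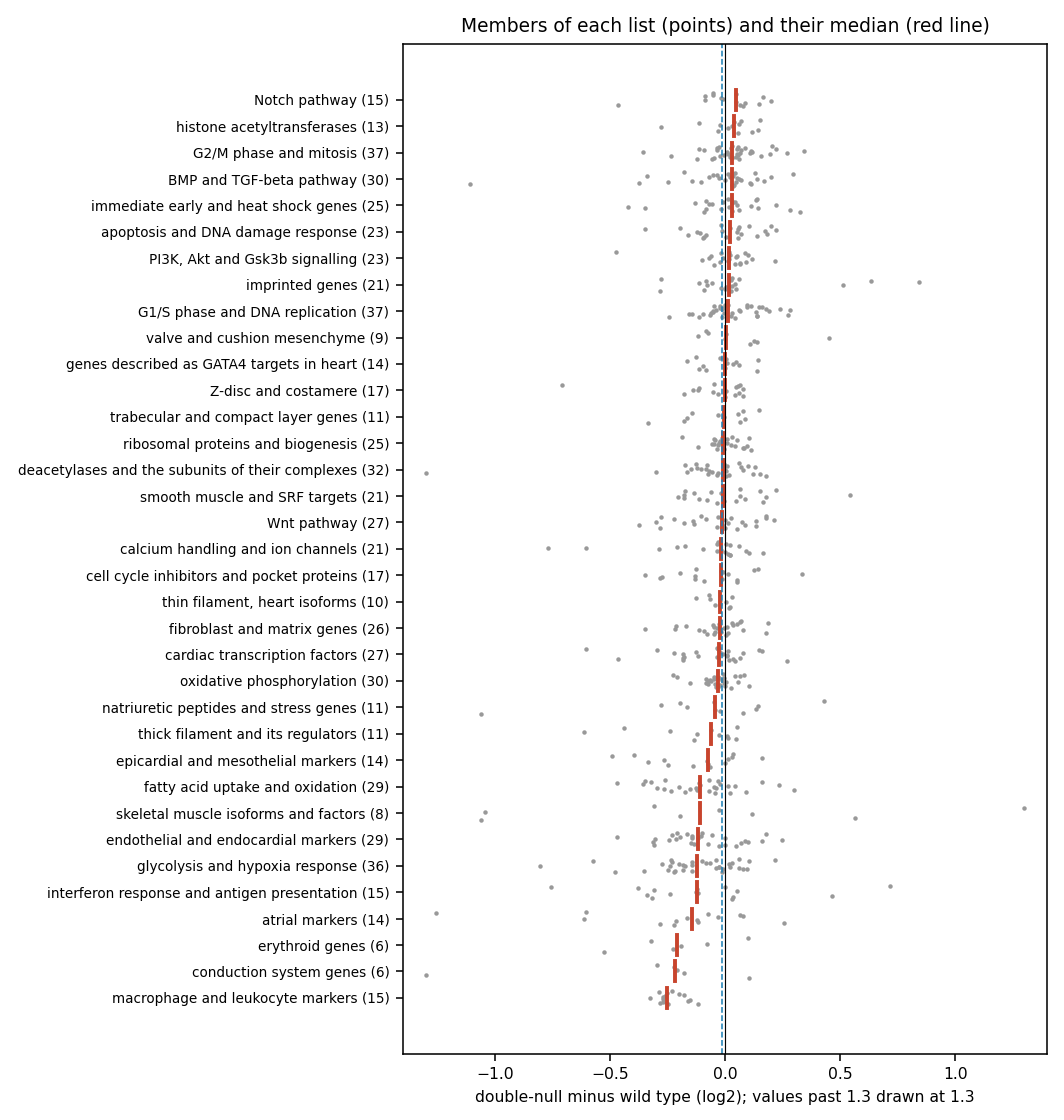
Difference between double-null and wild type (log2, horizontal axis) for the tested members (grey points) of 35 gene lists, with the number tested in brackets; red lines are medians and the dashed line is the median of all genes, -0.01. Leukocyte markers lie lowest, at -0.25, and values past 1.3 in either direction are drawn at 1.3.

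Double-null ventricles were also set beside each single null. The 3 comparisons with wild type use the same wild-type arrays, so their values are given side by side only. Against Hdac2-null ventricles 1 gene was called in double-null, Hopx (0.0103% of those tested), and 1097 reached an unadjusted p under 0.05 (11.3%). Against Hopx-null ventricles 2 were called, Hdac2 and Tnni2 (0.0207%), with 786 at an unadjusted p under 0.05 (8.13%). The interaction, which asks whether the losses add on the log2 scale, gave 0 called genes with limma (0%) and 404 at an unadjusted p under 0.05 (4.18%). With limma's array weights, which gave wild type 1 the least weight and double-null 2 the most, 951 genes were called against Hdac2-null (556 higher and 395 lower), while 2 were called against Hopx-null and 0 in the interaction. Against Hopx-null, Hdac2 alone was called without the floor, with the other floors, and without Hopx-null 2, Hopx-null 3, double-null 2 or double-null 3. Without wild type 3, Hopx was called in the interaction.

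Log2 differences from wild type were 2.53 in double-null, 2.96 in Hdac2-null and 0.22 in Hopx-null ventricles for Tnni2. They were 0.87 in double-null, 0.84 in Hdac2-null and 0.07 in Hopx-null for Tdrkh, and 0.84 in double-null, 0.77 in Hdac2-null and 0.08 in Hopx-null for Sall4. For Paqr9 they were -1.63 in double-null, -1.73 in Hdac2-null and -0.08 in Hopx-null, and for Ctsc -0.48 in double-null, -0.51 in Hdac2-null and -0.06 in Hopx-null. Double-null and Hdac2-null arrays overlapped for each of these 5 genes. For other genes the double-null arrays lay beyond both single nulls. Of the 10 genes with the smallest p in each direction, 4 higher and 4 lower lay outside the range of all other 9 arrays. They were Myef2, Peg12, Cip2a and Zfp141 above and the targeted gene Hopx, Eapp, Uchl1 and Ddit4 below. Selection by p against wild type favours genes apart from the wild-type arrays, so these counts cannot be set against shares over all genes. Of all genes tested, 109 (1.13%) lay above the other 9 arrays and 140 (1.45%) below, while 610 and 832 were apart from wild type. Myef2 measured 0.34 in double-null, 0.10 in Hdac2-null and 0.03 in Hopx-null (interaction 0.21, SE 0.08, adjusted p = 0.942). Peg12 measured 0.64 in double-null, 0.05 in Hdac2-null and 0.20 in Hopx-null (interaction 0.39, SE 0.15, adjusted p = 0.942). Uchl1 was at 836, 1213 and 947 in Hdac2-null and 703, 1007 and 627 in Hopx-null ventricles, against 580.4, 555 and 452 in double-null (interaction -0.51, SE 0.29). Klhl32, in contrast, was near or below the floor in all 3 null groups, at 40.3, 14.3 and 78.4 in Hdac2-null, 36.1, 36.0 and 75.8 in Hopx-null and 25.4, 96.5 and 56.6 in double-null.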

How the data were processed

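Expression was measured with single-colour Affymetrix arrays in 12 embryonic ventricles, 3 per genotype, assigned to groups by their titles. The submitters' processing notes name MAS5, without a version. The values deposited by the authors are linear probe set intensities, 1 table for all arrays. The lowest was 3.60 and 48.6% lay within 1 unit of 4.5, a pile-up at a near-constant value that is known from model-based summaries rather than from MAS5. How the values were made is therefore not known here. Signals near 4.5 were treated as undetected, and the floor is a choice of this work, not a detection limit of the arrays.

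Of 45101 probe sets, 64 controls were left out, 34945 carried 1 gene symbol, 932 several and 9160 none in the platform annotation. Symbols were updated through a RefSeq gene table of GRCm38.p6 (34741 probe sets matched), used also for gene order. The probe set of highest mean signal stood for each of 18193 genes. Genes at or above the 40th percentile of mean signal (4.76 units) numbered 12433, and 2766 of them did not vary above the floor of 82.5 units, which left 9667. The floor was set at 0.1 of the trimmed mean signal, averaged over arrays. Log2 differences were fitted over the 12 arrays with limma 3.58.1 in R 4.3.3 (intensity trend, 8 residual degrees of freedom) and adjusted by Benjamini-Hochberg over all genes tested. The fit was tested on simulated data with independent errors, and changes were placed only in genes well above the floor. That test does not cover genes near the floor in wild type, such as Tnni2. The median SE was 0.11, and the number of arrays limits the precision. p-values measure the spread between these ventricles.

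The members, gene lists and tests were chosen with earlier results of these data known. Genes named were the targeted and called genes, the 10 with the smallest p in each direction, a short list of cardiac genes, and up to 4 members of each list with the smallest p, unless stated. A group is called apart, or without overlap, when every array of one lies on the same side of every array of the other. Alternatives covered the floor, the filter, quantile normalisation, the arrays fitted, the intensity trend, array weights, the replicate number, Xist signal, the choice of probe set and each array left out. List medians with quantile normalisation and with Xist as a covariate were added after seeing the data.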

Additional observations from a re-analysis of the deposited data

How the results depend on the processing

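Counts of genes called at an adjusted p under 0.05 in limma were recomputed under each alternative. For double-null against wild type, 3 genes were called, 2 to 8 when 1 array was left out, 8 without wild type 3, and 2 to 4 under every other alternative tried. Without a floor the 3 were Hdac2, Hopx and Tbrg3, and array weights added Myef2 (log2 0.37, adjusted p = 0.0316). Over all probe sets 6 were called, 5 without a floor, and 4 to 10 with 1 array left out. Against Hdac2-null 1 gene was called, 951 with array weights, 2 with the probe set of highest variance, and 1 whichever array was left out. Against Hopx-null 2 were called, and 1 without a floor, with a floor of 41.3 or 165 units, with only the arrays compared, and with the replicate number as a block, and 1 to 3 with 1 array left out. The interaction gave 0, and 0 to 1 with 1 array left out. The causes of these shifts were not tested, apart from the fewer arrays that some of the fits hold.

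Same-numbered wild-type and double-null arrays had deviations correlated at 0.117, -0.253 and 0.052. With 3 arrays per group, such values cannot settle whether the replicate numbers pair the samples. Xist was at 4988 to 6108 units on replicate 1 of the 4 genotypes and at 8.67 to 22.2 on replicate 3. With the number as a block 3 genes were called against wild type, 1 against Hdac2-null, 1 against Hopx-null and 0 in the interaction.

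Of 173 named genes 30 took the opposite sign under at least 1 alternative, 12 of them when an array was left out, and 0 of these 30 were called against wild type. Myef2 and Ddit4 became called under 1 alternative each, and Tnni2 lost its call against wild type in 6. The median of all genes was -0.01 with the floor, -0.0038 without it and -0.01 after quantile normalisation. Signals under the floor have no order, so low genes such as Tnni2 in wild type set only a bound on their difference.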
